A study of Homo sapiens with 9 samples.

Results

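Cyclins are the regulatory subunits that switch on cyclin-dependent kinases (CDKs) and so move a cell through its division cycle. The 9 genes described here are the D-type cyclins CCND1, CCND2 and CCND3, the E-type cyclins CCNE1 and CCNE2, the A-type cyclin CCNA2, the B-type cyclins CCNB1 and CCNB2, and CCNF. They were chosen by gene name from gene tables that list 58233 gene IDs, and each name matched 1 row. All 9 were among the 17880 genes with enough counts to be tested.

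D-type cyclins bind CDK4 and CDK6 in G1, where growth signals raise them, and start the phosphorylation of the retinoblastoma protein. E-type cyclins bind CDK2 at the entry to S phase, and their genes are targets of E2F transcription factors. Cyclin A2 works in S phase and G2 with CDK2 and CDK1, and cyclins B1 and B2 drive mitosis with CDK1. Cyclin F does not activate a CDK but is the substrate-binding part of an SCF ubiquitin ligase.

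The cells were TC32, an established Ewing sarcoma line, grown in RPMI medium with 10% fetal bovine serum, and RNA sequencing was done on 9 libraries of polyadenylated RNA, 3 per group. Vehicle cells received PBS and then DMSO. Wnt3a cells received the ligand Wnt3a, which activates canonical Wnt signalling, for 28 h, with DMSO added after the first 4 h. The third group, called inhibitor cells here, received Wnt3a for 28 h and, for the last 24 h, SB-505124, an inhibitor of TGF-β type I receptor kinases. Serum was present in all 3 groups, no group had the inhibitor without Wnt3a, and no label says whether replicates were separate cultures, so the p-values rest on a spread between libraries that may be only technical.

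Inhibitor libraries held 28844348 to 37540072 counts, and the other 6 held 34348339 to 42976799. At least 1 count was seen for 23196 to 23250 genes in the former and for 25128 to 26802 in the latter. Inhibitor replicate 1 stood apart from its group: the chi-square of its counts, per degree of freedom, was 62.1 and 64.2 against replicates 2 and 3, which differed from each other by 9.78. Vehicle replicate 2 did so too, at 40.6 and 37.1 beside 7.19 for the other pair. Values without 1 of these libraries are given below for some results only, so a result without such a value is not shown to be stable. TMM factors, which correct library size for composition, were 0.876 to 0.914 and 1.02 to 1.10. AXIN2, a feedback target of canonical Wnt signalling, rose from 3.29 ± 0.326 to 20.1 ± 2.82 TMM-scaled CPM (counts scaled to a common library size; mean ± SD, n = 3) with Wnt3a (log2 2.61 with SE 0.157, edgeR adjusted p = 0.000119). In inhibitor cells AXIN2 was higher still (log2 0.63 against Wnt3a, which was called, and 3.24 against vehicle), so this Wnt readout was not equal in the groups given Wnt3a. As checks of the inhibitor, the TGF-β target PMEPA1 fell from 48.3 ± 6.66 to 13.98 ± 0.545 CPM against Wnt3a (log2 -1.79, edgeR adjusted p = 4.75e-06), while SMAD7, another such target, was at 14.9 ± 2.96 against 18.0 ± 0.916 CPM and did not pass (log2 -0.27, edgeR adjusted p = 0.157). Both were chosen after their values were seen. All 8 Ewing sarcoma markers were present at 1 CPM or more in every group. Of 7 leukocyte markers 6 were under 1 CPM in each group, CD3E and TYROBP had no count in any library, and their summed level was 2.26 to 3.71 CPM in vehicle, 2.34 to 2.61 with Wnt3a and 5.26 to 8.95 with the inhibitor. The 10 fibroblast markers summed to 548 to 840.4, 693.5 to 1157 and 458.2 to 568.2 CPM in the same order, and the part of these shifts in the cyclin results was not tested.

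The levels of the 9 genes were first set side by side in TPM, the authors' measure of transcript abundance per length. In vehicle cells the order ran from CCND1, at 720.8 ± 118.5 TPM (SD, n = 3), to CCNB1 at 307.4 ± 22.3, CCNB2 at 110.1 ± 5.91, CCNA2 at 43.6 ± 1.56, CCND3 at 40.8 ± 4.51, CCNE2 at 22.3 ± 1.40, CCNF at 16.5 ± 0.566, CCNE1 at 6.24 ± 0.536 and CCND2 at 0.157 ± 0.139. CCNA2 and CCND3 overlapped between libraries, and no other neighbours in that order did. Wnt3a cells had the same order with no overlap between neighbours, from CCND1 at 703.3 ± 128.5 TPM to CCND2 at 0.130 ± 0.0854. In inhibitor cells CCNB1 came first at 386.2 TPM, ahead of CCND1 at 294.8, CCNB2 at 151.2, CCNA2 at 75.7, CCND3 at 39.7, CCNF at 13.5, CCNE2 at 1.8, CCNE1 at 0.510 and CCND2 at 0.0800, again without overlap between neighbours. CCND1 and CCNB1 thus stood in opposite order with and without the inhibitor, and CCNE2 stood above CCNF without it and below CCNF with it.

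**Figure D1:**
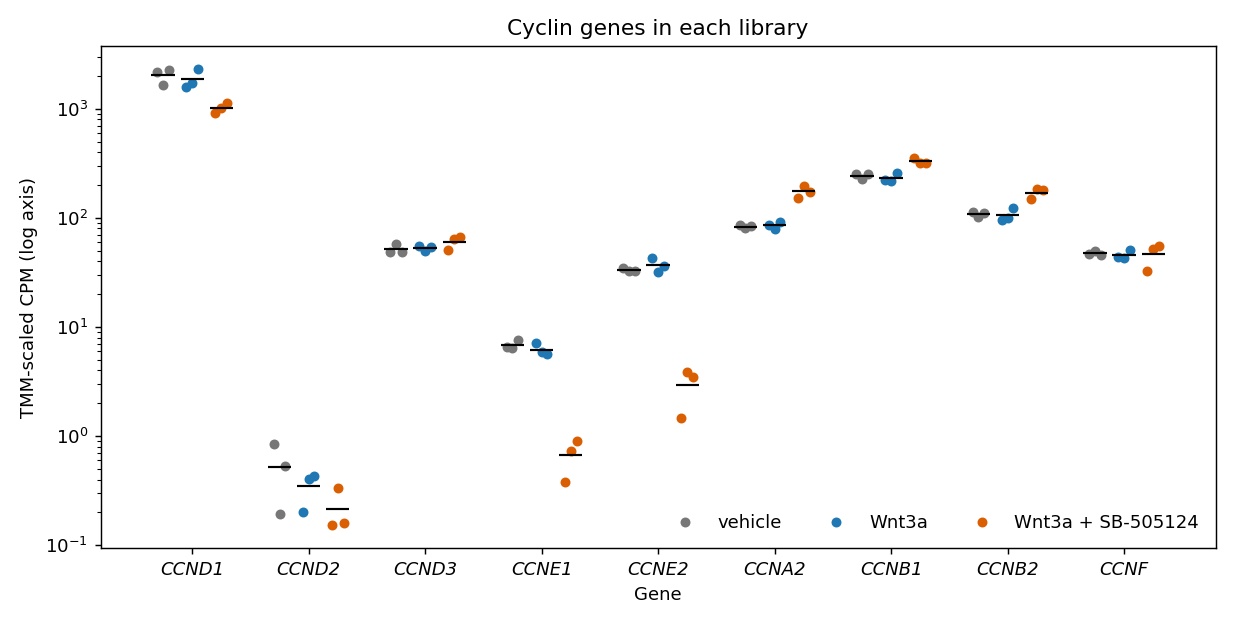
TMM-scaled CPM on a log axis for the 9 cyclin genes, 1 point per library (3 per group, replicates 1 to 3 from left to right) with a bar at the group mean. The inhibitor points of CCND1, CCNE1 and CCNE2 lie below all other points of the same gene, and those of CCNA2, CCNB1 and CCNB2 lie above them.

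By the gene annotation GENCODE 29 on hg38, CCND1 (ENSG00000110092.3) lies on chromosome 11 from 69641087 to 69654474, CCND2 (ENSG00000118971.7) on chromosome 12 from 4273772 to 4305350, CCND3 (ENSG00000112576.12) on chromosome 6 from 41934933 to 42050357 and CCNE1 (ENSG00000105173.13) on chromosome 19 from 29811898 to 29824308. CCNE2 (ENSG00000175305.17) lies on chromosome 8 from 94879770 to 94896678, and CCNA2 (ENSG00000145386.9) on chromosome 4 from 121816444 to 121823933. CCNB1 (ENSG00000134057.14) lies on chromosome 5 from 69167010 to 69178245, CCNB2 (ENSG00000157456.7) on chromosome 15 from 59105078 to 59125045 and CCNF (ENSG00000162063.12) on chromosome 16 from 2429394 to 2458854. Each value sums the reads over all transcripts of the gene. Genes on the opposite strand overlap CCND1 (LTO1, named ORAOV1 in the tables), CCNE2 (INTS8, NDUFAF6, AC087752.4 and AC087752.1) and CCNA2 (EXOSC9). Others overlap CCND2 (CCND2-AS1), CCND3 (AL513008.1), CCNB2 (AC092757.3) and CCNF (AC106820.6, AC106820.3 and AC106820.5). CCND2-AS1 had 0 counts, and levels of the genes with clone names are not given here. Whether the counting used strand is not given in the sources used here. INTS8 rose with the inhibitor from 66.4 to 93.7 CPM (log2 0.50, edgeR adjusted p = 0.00189), opposite to CCNE2, which had 2.95 CPM there, whereas ORAOV1 fell (log2 -0.81, edgeR adjusted p = 0.00685), as CCND1 did, and EXOSC9 rose (log2 0.39, edgeR adjusted p = 0.00688), as CCNA2 did. In Wnt3a cells ORAOV1 had 26.6 CPM beside 1874 CPM for CCND1. EXOSC9 had 59.3 CPM beside 86.3 CPM for CCNA2, so the CCNA2 value is the more uncertain of the 2 if strand was not used.

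The first comparison, Wnt3a against vehicle, asks how the ligand affects these genes. Of the 9 cyclins 0 passed the threshold, an edgeR quasi-likelihood adjusted p under 0.05, beside 75 of all 17880 genes tested (0.419%). At an unadjusted p under 0.05 there were also 0 cyclins, beside 1362 genes, and DESeq2 called 0 cyclins. CCND1, a gene often listed among Wnt targets, had 2166, 1663 and 2280 CPM in vehicle replicates 1 to 3 and 1586, 1707 and 2329 CPM with Wnt3a. The groups overlapped over nearly their whole range. The log2 fold change was -0.12 (SE 0.166, 95% interval -0.49 to 0.25, edgeR adjusted p = 0.929), and an interval of this width does not show that the groups were equal. Over the cyclins the log2 fold changes ran from -0.58 for CCND2 to 0.16 for CCNE2 with a median of -0.05, and the median of all genes was 0.01. Of the genes around the cyclins, CABLES1, a CDK-binding protein, rose from 36.0 ± 4.02 to 61.0 ± 4.58 CPM (log2 0.76, edgeR adjusted p = 0.0286) and TCF7, a Wnt transcription factor gene, from 3.57 ± 0.841 to 14.2 ± 5.06 CPM (log2 1.996, edgeR adjusted p = 0.0327). Of 41 genes of S phase 0 passed (median log2 -0.06), and of 46 genes of G2 and mitosis 0 passed (median 0.03).

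Inhibitor cells were then compared with Wnt3a cells, which asks how the cyclins responded when the receptors were blocked in the presence of the ligand. Both E-type cyclins and CCND1 fell, CCNA2 and both B-type cyclins rose, and CCND2, CCND3 and CCNF did not pass. The counts were 3 higher and 3 lower of 9, beside 24.5% of all genes higher and 25.9% lower, and shares this near those of all genes are no result about the cyclins as a set. Of the genes called, 48.6% were higher. Scaling by library totals alone, which moves the median log2 of all genes from -0.06 to -0.31, leaves 30.6% of calls higher, and limma-trend on TPM leaves 26.5% or 25.9% for pseudocounts of 1 and 0.1, yet the 9 cyclins again gave 3 higher and 3 lower calls under each. The comparison of inhibitor with vehicle uses the same 3 inhibitor libraries and called the same 6 genes in the same directions, beside 25% of all genes higher and 24.8% lower (50.2% of calls higher, and 33.7%, 33.3% and 32.4% under the same alternatives). In bulk RNA, fewer cells at a stage of the cycle and less RNA per cell at that stage cannot be told apart.

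**Figure D2:**
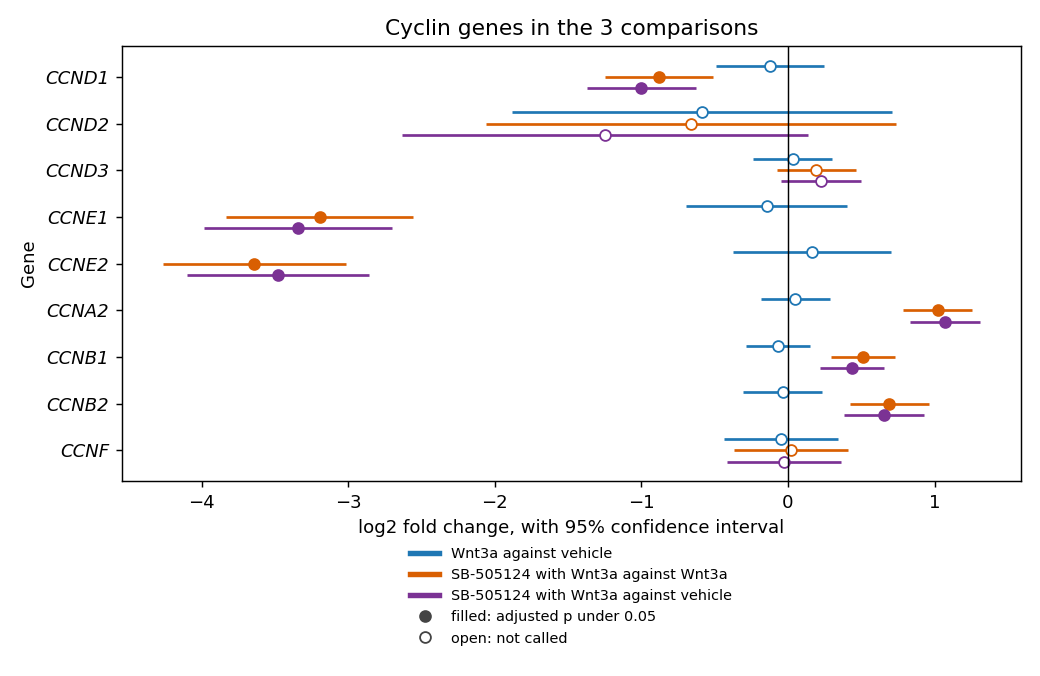
Fitted log2 fold changes of the 9 cyclin genes with 95% confidence intervals for the 3 comparisons, filled where the edgeR adjusted p was under 0.05. All 9 Wnt3a intervals cross 0, and the inhibitor intervals lie below 0 for CCND1, CCNE1 and CCNE2 and above 0 for CCNA2, CCNB1 and CCNB2.

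Among the D-type cyclins, CCND1, which makes cyclin D1, the main D-type cyclin of these cells, had 911.3, 1021 and 1124 CPM in inhibitor replicates 1 to 3. The highest of these lay below the lowest of the 6 other libraries. CCND1 fell from 1874 ± 399 CPM with Wnt3a to 1019 ± 106 (SD, n = 3 per group; log2 -0.88, SE 0.167, 95% interval -1.25 to -0.51, edgeR adjusted p = 0.00163), which is 1.84-fold. Against vehicle, at 2036 ± 328 CPM, the log2 fold change was -0.999 (edgeR adjusted p = 0.000777).

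CCND3, which makes cyclin D3, had 49.1, 57.8 and 48.3 CPM in vehicle, 55.5, 49.3 and 53.9 CPM with Wnt3a, and 51.0, 63.8 and 66.7 CPM with the inhibitor. Inhibitor replicate 1 lay within the range of the other groups and replicates 2 and 3 above it. Against Wnt3a the log2 fold change was 0.19 (SE 0.122, 95% interval -0.08 to 0.46, edgeR adjusted p = 0.208). Without inhibitor replicate 1 it was 0.31 and passed (edgeR adjusted p = 0.0327), and with library totals alone it was -0.06. CCND2, which makes cyclin D2, was close to absent, with 8 to 30 expected counts per library in vehicle, 8 to 19 with Wnt3a and 4 to 11 with the inhibitor. Its log2 fold change of -0.66 against Wnt3a had an interval from -2.06 to 0.73 (edgeR adjusted p = 0.4), so a difference was not detectable at this depth. Against vehicle it was -1.25 (edgeR adjusted p = 0.121), which passed without vehicle replicate 2 (log2 -1.65, edgeR adjusted p = 0.0423).

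CCND1 made up 94.5% ± 1.51 of the summed TPM of the D-type cyclins in vehicle, 94.0% ± 1.09 with Wnt3a and 88.1% ± 0.865 with the inhibitor (SD, n = 3). The inhibitor libraries, at 87.3% to 89.0%, did not overlap those with Wnt3a, at 92.85% to 95.02% (exact permutation test, 2-sided, p = 0.1, the smallest p that 3 against 3 can give). The summed level went from 747 ± 128 to 334.6 ± 43.7 TPM, so the D-type sum followed CCND1, the member that fell, while CCND3 had 43.7 and 39.7 TPM. TPM carries no TMM factor, so summed TPM, here and below, is not on the scale of the CPM fold changes. In TMM-scaled CPM CCND3 had 52.9 and 60.5.

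The E-type cyclins had the largest changes of the 9. CCNE1, which makes cyclin E1, had 6.58, 6.45 and 7.58 CPM in vehicle, 7.15, 5.85 and 5.62 CPM with Wnt3a, and 0.380, 0.730 and 0.895 CPM with the inhibitor. The inhibitor values lay far below the other 6, with inhibitor replicate 1, the library with the lowest total count, at the bottom. CCNE1 fell from 6.21 ± 0.822 to 0.668 ± 0.263 CPM against Wnt3a (log2 -3.19, SE 0.287, 95% interval -3.83 to -2.56, edgeR adjusted p = 2.14e-05), a 9.16-fold difference that rests on 10, 24 and 28 expected counts in the inhibitor libraries and 247 to 282 in the Wnt3a libraries. Against vehicle it fell by 3.34 on the log2 scale (edgeR adjusted p = 1.59e-05).

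CCNE2, which makes cyclin E2, had 34.4, 32.7 and 32.6 CPM in vehicle, 43.2, 32.0 and 36.5 CPM with Wnt3a, and 1.48, 3.86 and 3.52 CPM with the inhibitor. Replicate 1 was again the lowest, and no inhibitor library came near the other groups. CCNE2 fell from 37.3 ± 5.64 to 2.95 ± 1.29 CPM, 12.5-fold (log2 -3.64, SE 0.281, 95% interval -4.27 to -3.02, edgeR adjusted p = 9.45e-06), and by 3.48 against vehicle (edgeR adjusted p = 1.09e-05). Without inhibitor replicate 1 the log2 changes against Wnt3a were -2.92 for CCNE1 and -3.33 for CCNE2, and both passed.

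The balance within the pair did not follow the fall. CCNE1 was 21.9% ± 0.761 of the E-type TPM in vehicle, 19.9% ± 2.91 with Wnt3a and 24.2% ± 6.66 with the inhibitor, and the groups overlapped (exact permutation test of inhibitor against Wnt3a, 2-sided, p = 0.4). Their sum went from 32.5 ± 2.37 to 2.31 ± 1.11 TPM, a ratio of 14.1 that is not on the scale of the CPM fold changes of the 2 genes.

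Cyclin A2 and the B-type cyclins went the other way. CCNA2, which makes cyclin A2, had 85.5, 80.9 and 83.8 CPM in vehicle, 86.7, 79.8 and 92.4 CPM with Wnt3a, and 153.5, 197.8 and 174.3 CPM with the inhibitor. All 3 inhibitor libraries lay above the other 6. CCNA2 rose from 86.3 ± 6.305 to 175.2 ± 22.2 CPM against Wnt3a (log2 1.02, SE 0.107, 95% interval 0.78 to 1.26, edgeR adjusted p = 4.85e-05) and by 1.07 on the log2 scale against vehicle (edgeR adjusted p = 3.49e-05). It was the largest rise of the 9 genes.

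CCNB1, which makes cyclin B1, had 251.7, 227.9 and 253.8 CPM in vehicle, 222.1, 218.3 and 258.3 CPM with Wnt3a, and 357.7, 321.0 and 316.0 CPM with the inhibitor. The groups with and without inhibitor did not overlap. CCNB1 rose with a log2 fold change of 0.51 (SE 0.098, 95% interval 0.29 to 0.73, edgeR adjusted p = 0.00178) against Wnt3a and 0.44 (edgeR adjusted p = 0.00412) against vehicle. The second of these was 0.21 and did not pass with library totals alone (edgeR adjusted p = 0.0642), and the first was 0.26 there.

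CCNB2, which makes cyclin B2, had 112.1, 101.3 and 112.0 CPM in vehicle, 95.3, 99.4 and 122.7 CPM with Wnt3a, and 148.6, 182.8 and 181.5 CPM with the inhibitor, again without overlap. CCNB2 rose by 0.69 on the log2 scale against Wnt3a (SE 0.122, 95% interval 0.42 to 0.96, edgeR adjusted p = 0.00107) and by 0.66 against vehicle (edgeR adjusted p = 0.00147). The share of CCNB1 in the B-type TPM was 73.6% in vehicle, 73.7% with Wnt3a and 71.8% ± 3.33 with the inhibitor, with overlap (exact permutation test of inhibitor against Wnt3a, 2-sided, p = 0.4), while their sum went from 419.5 ± 37.6 to 537.4 ± 5.40 TPM.

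CCNF had 46.9, 49.7 and 45.4 CPM in vehicle, 43.6, 43.3 and 50.7 CPM with Wnt3a, and 32.3, 52.4 and 54.8 CPM with the inhibitor. Inhibitor replicate 1 was the lowest of all 9 libraries, and replicates 2 and 3 the highest. The log2 fold change of CCNF against Wnt3a was 0.02 (SE 0.175, 95% interval -0.37 to 0.41, edgeR adjusted p = 0.928), an interval that holds rises as large as the lower part of the CCNB1 interval. Without inhibitor replicate 1 it was 0.23 and did not pass (edgeR adjusted p = 0.0772). Among 7 proteins that cyclin F is reported to bind or mark for degradation, the genes CCP110 (log2 0.50, edgeR adjusted p = 0.0031) and FZR1 (log2 0.63, edgeR adjusted p = 0.0071) rose, CDC6 (log2 -1.01, edgeR adjusted p = 7.11e-05) and SLBP (log2 -0.43, edgeR adjusted p = 0.00551) fell, and the other 3 did not pass. With library totals alone CCP110 (log2 0.25, edgeR adjusted p = 0.0571) and FZR1 (log2 0.38, edgeR adjusted p = 0.0569) did not pass, and the list had 0 higher and 2 lower calls, while 3 were higher and 2 lower without inhibitor replicate 1.

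A readout other than the counts is the length that RSEM gives each gene in each library, an average over its transcripts weighted by their estimated abundance. CCNB1 has 7 transcripts in GENCODE 29, from 463 to 2169 bases. Its isoform-weighted length was 1190, 1197 and 1191 bases in vehicle, 1202, 1188 and 1182 bases with Wnt3a, and 1071, 1059 and 1074 bases with the inhibitor. All 3 inhibitor libraries lay below the rest, at 89.7% of the Wnt3a mean (log2 -0.157, SE 0.016, limma adjusted p = 0.00387) and 89.6% of the vehicle mean (limma adjusted p = 0.00354). Of 14226 genes whose length varied, 3.49% were shorter against Wnt3a and 3.43% against vehicle, and 0 (0%) differed between Wnt3a and vehicle, where 523 had an unadjusted p under 0.05. CCNB2 was at 92.8% of its length with Wnt3a and did not pass (limma adjusted p = 0.0995), and the 6 other cyclins whose length varied did not pass either. CCNA2 was listed at 2797 bases in every library. Its 2 transcripts in GENCODE 29 both have 2797 bases, so this length cannot show a shift between them. These lengths are estimates of RSEM with no error of their own, and the tables used here do not give the transcripts behind them.

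**Figure D3:**
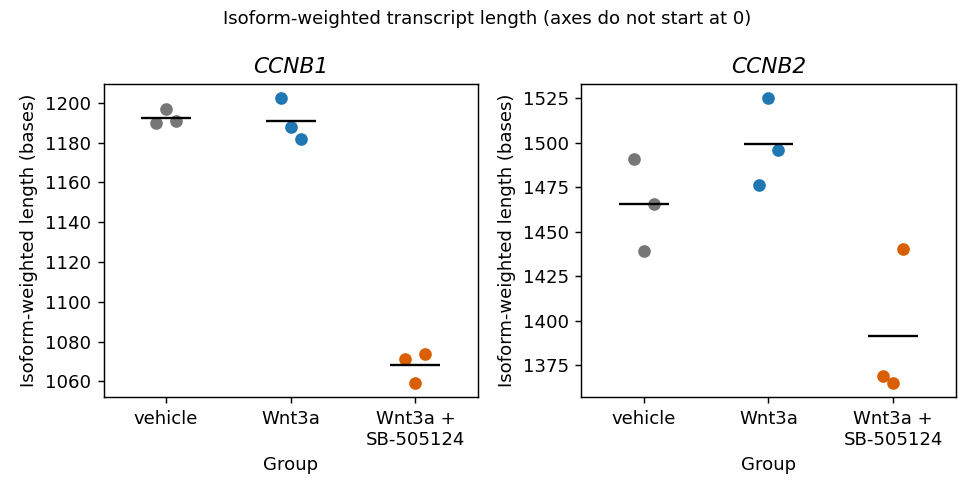
Isoform-weighted transcript length in bases of CCNB1 and CCNB2, 1 point per library with a bar at the group mean of 3 (axes do not start at 0). The CCNB1 points of the inhibitor group, at 1059 to 1074 bases, lie apart from the other 6, at 1182 to 1202 bases.

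Promoter sequence was available in the RefSeq promoter table (GRCh38.p14, 250 bases before to 50 after each start) for 6 of the 9 genes, CCND3, CCNE1, CCNA2, CCNB1, CCNB2 and CCNF. The stretches below, 5′ to 3′ on the strand of the gene and ending at the base before the start, are shown because these genes are expressed at different stages of the cycle and moved in different directions or did not pass. For the 4 genes of G2 and mitosis or near it, capitals mark the CCAAT box (CCAAT, or ATTGG on the other strand), which NF-Y binds, and the letters of the cell cycle homology region, or CHR (searched on both strands as TTTGAA, as TTCGAA and as CTTGAA), the element through which DREAM and MuvB complexes act. For CCNE1 capitals mark E2F letters (TCCCGC, or GCGGGA on the other strand), which are left in lower case in CCNA2.
CCNA2, chr4:121823884-121823983, minus strand: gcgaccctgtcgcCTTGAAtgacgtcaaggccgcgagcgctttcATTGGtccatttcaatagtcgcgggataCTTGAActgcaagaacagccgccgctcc
CCNB1, chr5:69167050-69167149, plus strand: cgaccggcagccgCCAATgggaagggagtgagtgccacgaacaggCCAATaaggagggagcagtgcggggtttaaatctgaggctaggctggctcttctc
CCNB2, chr15:59105016-59105145, plus strand: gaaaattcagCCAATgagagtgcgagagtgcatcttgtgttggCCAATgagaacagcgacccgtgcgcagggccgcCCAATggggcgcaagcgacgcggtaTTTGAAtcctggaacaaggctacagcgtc
CCNF, chr16:2429327-2429446, plus strand: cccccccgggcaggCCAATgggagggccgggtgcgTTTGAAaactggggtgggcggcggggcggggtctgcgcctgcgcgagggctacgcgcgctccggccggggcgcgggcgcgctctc
CCNE1, chr19:29811861-29811990, plus strand: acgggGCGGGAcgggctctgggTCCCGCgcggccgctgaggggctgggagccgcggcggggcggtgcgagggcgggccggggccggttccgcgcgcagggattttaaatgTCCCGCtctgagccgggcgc

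In the windows of 300 bases CCNB1 had CCAAT boxes 87 and 55 bases before the start, and CCNB2 had them 244, 120, 87 and 54 bases before it. Pairs of CCAAT boxes 31 to 35 bases apart on 1 strand were thus present once in CCNB1 (32 bases) and as 2 neighbouring pairs in CCNB2 (33 and 33 bases), and such a pair stood in 1.02% of all 35116 windows. CCNF had 4 CCAAT boxes, none of them so spaced, and CCNA2 had 1. CCND3 also had a CCAAT box, 64 bases before 1 of its 3 starts and 136 bases before another. CHR letters were found in CCNA2 (2), CCNB2 (1) and CCNF (2) and not in CCNB1. TTTAAA, present in the printed stretches of CCNB1 and CCNE1, was not among the letters searched. The lack of a match thus does not show the lack of a CHR. Single CCAAT boxes stood in 34.6% of all windows, CHR letters in 24.9% and E2F letters in 26.9%, so a match to any 1 of them is common. E2F letters stood 125, 108 and 20 bases before the start of CCNE1, 176 and 36 bases before that of CCNA2, 147 bases before that of CCNF and 125 bases before 1 of the 3 starts of CCND3, so they were found in genes that fell, rose or did not pass. CCNE1 held no CCAAT box and none of the CHR letters searched. The letters CTTTGAT, which the factors of canonical Wnt signalling bind, stood in 2.62% of windows and in none of the cyclin windows. A match here describes letters in a window and no binding was measured.

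The genes around the cyclins were described by lists, each by its counts beside those of all genes given above for inhibitor against Wnt3a (24.5% higher, 25.9% lower, median log2 -0.06). For list counts in other settings, 30.6% of the calls of all genes were higher with library totals alone and 48.2% without inhibitor replicate 1. The lists share genes, so their counts are not separate observations. CDK1 and FOXM1, for example, also stand in the list of G2 and mitosis, as do CDC20 and UBE2C from the degradation list. Of 15 CDKs that partner the cyclins and their regulators 10 rose and 3 fell, with a median log2 of 0.60. The 10 include WEE1, a kinase that inhibits CDK1 (log2 0.87, edgeR adjusted p = 0.000344), and PKMYT1, another such kinase, did not pass. Without inhibitor replicate 1 PKMYT1 rose and passed (log2 0.90, edgeR adjusted p = 0.000311). CDK1, the partner of the B-type cyclins, rose from 167.5 ± 13.5 to 305.9 ± 45.4 CPM (log2 0.87 with SE 0.115, edgeR adjusted p = 0.000185), and CKS1B, a small CDK-binding subunit, from 218 ± 13.1 to 481.3 ± 32.0 CPM (log2 1.15, edgeR adjusted p = 8.24e-06). The partners of the D- and E-type cyclins did not move as 1 group. CDK2 fell from 78.7 ± 13.6 to 46.9 ± 2.21 CPM (log2 -0.75, edgeR adjusted p = 0.0023) and CDK4 from 338 ± 45.8 to 246 ± 12.3 CPM (log2 -0.46, edgeR adjusted p = 0.0183), while CDK6 rose from 9.46 ± 0.695 to 41.5 ± 5.34 CPM (log2 2.13, edgeR adjusted p = 2.25e-05). CDC25A, the phosphatase that activates CDK2, fell from 40.8 ± 2.75 to 15.7 ± 2.41 CPM (log2 -1.37, edgeR adjusted p = 2.14e-05).

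Of 7 CDK inhibitors tested 4 rose and 1 fell (median log2 0.68). CDKN1A, which makes p21, rose from 67.9 ± 21.4 to 569.5 ± 183 CPM (log2 3.07 with SE 0.318, edgeR adjusted p = 4.75e-05). CDKN1B, which makes p27, rose from 51.0 ± 3.44 to 121.7 ± 10.8 CPM (log2 1.25 with SE 0.098, edgeR adjusted p = 1.02e-05). Both proteins inhibit cyclin E with CDK2. CDKN2D, an inhibitor of CDK4 and CDK6, rose as well (log2 1.47, edgeR adjusted p = 0.000146), as did CDKN3, a phosphatase that acts on CDKs (log2 0.43, edgeR adjusted p = 0.00664), which did not pass with library totals alone (log2 0.18, edgeR adjusted p = 0.118), and CDKN2A, which makes p16 and p14ARF, fell from 8.61 ± 2.41 to 2.41 ± 1.04 CPM (log2 -1.85, edgeR adjusted p = 0.00114).

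Of 13 genes of the E2F and retinoblastoma families 3 rose and 6 fell (median log2 -0.23), and 4 rose and 6 fell without inhibitor replicate 1, with a median of 0.07. TFDP1, the partner subunit of E2F proteins, fell from 189.4 ± 10.8 to 89.1 ± 11.7 CPM (log2 -1.09, edgeR adjusted p = 3.13e-05) and the activator E2F2 from 29.8 ± 0.951 to 8.68 ± 2.72 CPM (log2 -1.78, edgeR adjusted p = 6.97e-05). E2F1 was at 44.8 ± 17.7 against 52.6 ± 8.71 CPM (log2 -0.23, edgeR adjusted p = 0.503), RB1 rose (log2 0.83, edgeR adjusted p = 0.00469), as did E2F5, a repressor (log2 1.32, edgeR adjusted p = 2.69e-05), and RBL2, which makes p130, fell (log2 -0.81, edgeR adjusted p = 9.4e-05). Of 11 genes of the DREAM and MMB complexes, FOXM1 and NF-Y, which act on promoters of G2 and mitosis, 6 rose and 1 fell (median log2 0.56), and 4 and 1 with library totals alone. LIN54, the subunit that binds CHR elements, rose from 18.5 ± 3.95 to 43.6 ± 4.28 CPM (log2 1.24, edgeR adjusted p = 0.000403) and NFYC, an NF-Y subunit, from 53.2 ± 9.33 to 119.2 ± 21.3 CPM (log2 1.16, edgeR adjusted p = 0.000191). FOXM1, a transcription factor of mitotic genes, passed with overlapping groups (log2 0.58, edgeR adjusted p = 0.0223) and did not pass against vehicle (log2 0.45, edgeR adjusted p = 0.0656) or with library totals alone (log2 0.33, edgeR adjusted p = 0.128). Without inhibitor replicate 1 FOXM1 passed against Wnt3a (log2 0.81, edgeR adjusted p = 0.000116).

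Genes of S phase mostly fell, as the E-type cyclins did, and genes of G2 and mitosis mostly rose, as CCNA2 and the B-type cyclins did, with exceptions in both lists. None of the 9 cyclins is in either list. Of 41 S phase genes 4 rose and 22 fell (median log2 -0.44), with FEN1, a flap endonuclease of DNA replication, from 122.2 to 31.4 CPM (log2 -1.96, edgeR adjusted p = 1.56e-05) and POLE2, a subunit of DNA polymerase epsilon, from 17.1 to 5.40 CPM (log2 -1.66, edgeR adjusted p = 1.45e-05). GINS4 and GINS1, of the replicative helicase, fell as well (log2 -1.55 and -1.18, edgeR adjusted p = 3.11e-05 and 3.65e-05). The 4 that rose were CDT1, ORC1, PRIM2 and RRM1, named after their values were seen. Of 46 genes of G2 and mitosis 30 rose and 4 fell (median log2 0.48), with the centrosomal kinase NEK2 from 65.3 to 302.2 CPM (log2 2.21, edgeR adjusted p = 1.41e-05) and the spindle checkpoint kinase TTK from 65.3 to 132.7 CPM (log2 1.02, edgeR adjusted p = 8.03e-05). Those that fell were BUB1B, SPC24, SPC25 and GTSE1, also named after their values were seen. With library totals alone the counts were 3 and 24 for S phase (median log2 -0.70) and 18 and 6 for G2 and mitosis (median 0.23), beside a median of -0.31 for all genes, and RRM1 did not pass there. Without inhibitor replicate 1 they were 8 and 21 for S phase and 32 and 4 for G2 and mitosis. Of the calls of all genes in that setting 48.2% were higher, and the median log2 of all genes was -0.08.

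Cyclin levels are also set by protein degradation, which RNA does not show. Of 22 genes that act in or on the degradation of cyclins 10 rose and 6 fell (median log2 0.27), and 4 and 8 with library totals alone. The list also holds genes that act against degradation, USP2, which removes ubiquitin from cyclin D1 and rose (log2 0.71, edgeR adjusted p = 0.00874), and FBXO5, an inhibitor of the anaphase-promoting complex, which fell (log2 -0.33, edgeR adjusted p = 0.0228). USP2 did not pass with library totals alone (log2 0.46, edgeR adjusted p = 0.0577). FBXO5 did not pass without inhibitor replicate 1 (log2 -0.28, edgeR adjusted p = 0.0553). FBXW7, the receptor that marks cyclin E for degradation, rose from 14.9 ± 0.805 to 47.7 ± 8.98 CPM (log2 1.68, edgeR adjusted p = 2.25e-05). AMBRA1, the receptor for D-type cyclins, rose from 46.9 ± 3.52 to 89.8 ± 7.03 CPM (log2 0.94, edgeR adjusted p = 4.8e-05). CDC20, the activator of the anaphase-promoting complex that targets cyclin B, rose from 189.8 ± 18.0 to 398.9 ± 7.59 CPM (log2 1.07, edgeR adjusted p = 1.99e-05), and UBE2C, the ubiquitin-conjugating enzyme of that complex, rose too (log2 1.35, edgeR adjusted p = 0.000115).

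Of 17 tested factors listed as upstream of D-type cyclins 11 rose and 1 fell (median log2 0.44). The list holds activators and repressors, so its counts cannot be read as a move with or against CCND1. FOXO3 (log2 1.18, edgeR adjusted p = 0.000147), STAT3 (log2 1.45, edgeR adjusted p = 0.000228), STAT5A (log2 1.58, edgeR adjusted p = 0.00126) and JUN (log2 1.16, edgeR adjusted p = 0.00218) rose, of which FOXO factors are known to repress CCND1 and the others to activate D-type cyclin genes. MYC rose from 243.1 ± 33.9 to 322.8 ± 26.2 CPM (log2 0.41, edgeR adjusted p = 0.0162), but not with library totals alone (log2 0.17, edgeR adjusted p = 0.224), and against vehicle its log2 fold change was 0.03 (edgeR adjusted p = 0.83). The 1 that fell was CTNNB1, which makes β-catenin (log2 -0.56, edgeR adjusted p = 0.00416), named after its value was seen. With library totals alone 6 rose and 1 fell.

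Of 21 other genes of the cyclin family or that bind cyclins 5 rose and 3 fell (median log2 0.10). The rises were in cyclins without a firm place in the division cycle or with other tasks, namely CCNI from 225.5 ± 26.1 to 699.6 ± 22.1 CPM (log2 1.63, edgeR adjusted p = 4.56e-06), CCNG2 from 29.4 ± 2.62 to 97.6 ± 11.7 CPM (log2 1.73, edgeR adjusted p = 5.24e-06), CCNG1, a p53 target, from 163 ± 20.6 to 592.1 ± 88.7 CPM (log2 1.86, edgeR adjusted p = 1.29e-05), CCNH, a subunit of the CDK-activating kinase, and CCNL1, a cyclin linked to RNA splicing. CABLES1, the gene that rose with Wnt3a, fell with the inhibitor from 61.0 ± 4.58 to 20.6 ± 2.44 CPM (log2 -1.57, edgeR adjusted p = 1.11e-05).

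**Figure D4:**
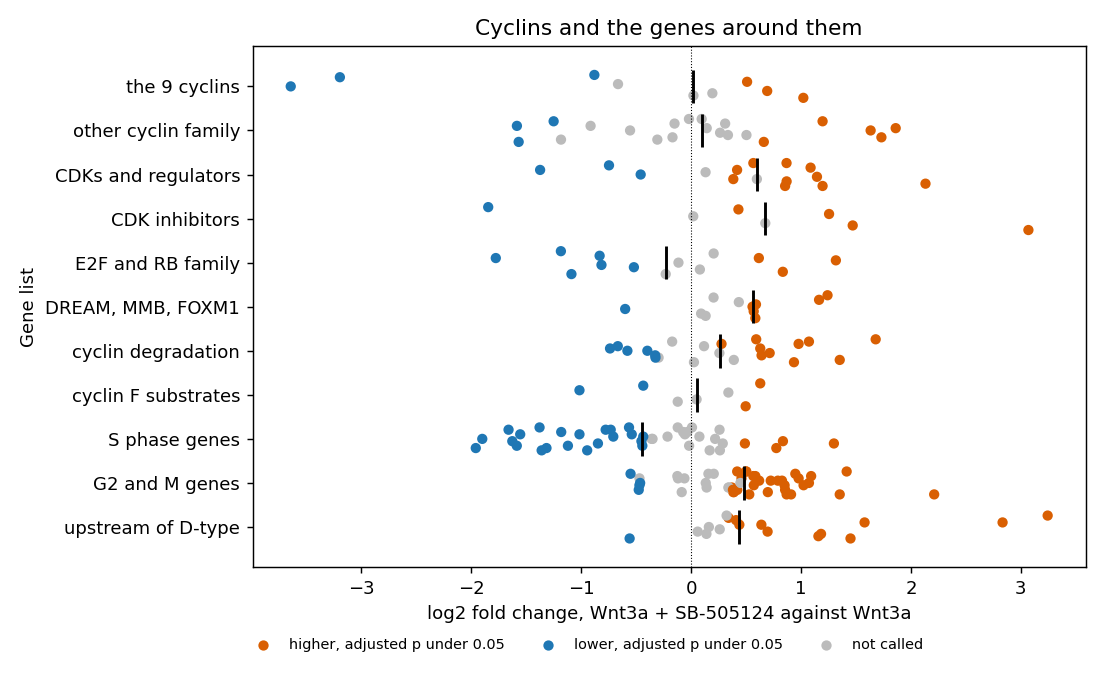
Log2 fold changes of inhibitor against Wnt3a for the 9 cyclins and 10 lists of related genes, 1 point per gene, coloured by the edgeR call, with a black bar at the median of each list. The S phase list has its median at -0.44 and the list of G2 and mitosis at 0.48, with single genes on the other side of 0 in both.

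Genes whose pattern over the 9 libraries was most like each cyclin were found by Pearson's r of log2(CPM + 1) over about 13143 genes. The 9 points share their libraries and fall into 2 separate sets, with and without the inhibitor, so high values are easy to reach and r is given as a description. For CCND1 the closest were C1orf226, WNT5A and TWNK (r = 0.99, 0.99 and 0.989). For CCNE1 they were ZBED5-AS1, POLE2 and CDC25A (0.998, 0.997 and 0.997), and for CCNE2 TFDP1, CCDC18 and GINS1 (0.998, 0.998 and 0.998). Of these 6, POLE2 and GINS1 are also in the S phase list, TFDP1 in the E2F list and CDC25A among the CDK regulators. For CCNA2 they were ASB3, CBLB and FBXW11 (0.999, 0.998 and 0.997), for CCNB1 MAFF, RTCA and CDS2 (0.996, 0.992 and 0.991) and for CCNB2 TPX2, a spindle assembly factor, PPP1R11 and SF3A1 (0.996, 0.996 and 0.994). CCND3 and CCNF, which did not pass in any of the 3 comparisons, had MRC2 (0.939) and VASN (0.986) as their closest genes, and CCND2, close to absent, had UMAD1 (0.959).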

How the data were processed

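RNA sequencing of 9 libraries in 3 groups of 3 was analysed, with groups and replicate numbers from the labels. Per the submitters' processing notes, the authors used the genome build hg38 with STAR 2.5.2a and RSEM 1.2.31, and also CASAVA 1.8.2 and Trimmomatic 0.36. For the annotation, the strand setting and any filter, the answer is not given in the sources used here. The deposited tables hold, per the file headers, an expected count per gene, made by RSEM, which shares out reads that fit several genes, and TPM, FPKM (not used), length and effective length.

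Expected counts were rounded, 45 second rows of pseudoautosomal genes were added to their partners, and filterByExpr left 17880 of 58233 gene IDs. All 9 libraries entered 1 model of the 3 groups, tested by the quasi-likelihood method of edgeR 4.0.16 (R 4.3.3, TMM factors, 2-sided, Benjamini-Hochberg over all genes tested, threshold 0.05). The residual degrees of freedom were 6 before moderation, and the common biological coefficient of variation was 21.5%. The standard error is the log2 fold change divided by the square root of F. Lengths were tested with limma 3.58.1 on log2 length, and shares of TPM with exact permutation tests over samples. The code was tested on simulated data.

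Every pair of replicates of a group differed by more than sampling noise (chi-square per degree of freedom 7.19 to 64.2). The named genes are the 9 cyclins, up to 4 members of each list with the smallest adjusted p for inhibitor against Wnt3a, members called with Wnt3a, a fixed panel that includes CDK1, CDK2, CDK4, CDK6, CDKN1A, RB1, E2F1, FOXM1 and MYC, and the 3 closest genes by r. Some genes the rule takes are left out, a gene fixed as a check of the inhibitor is not reported here, and genes of each list beyond the 4, or overlapping a cyclin, were named once their values had been seen. Both the cyclins and the lists were chosen with earlier results of these data known. Promoter sequences are from RefSeq (GRCh38.p14), and protein sequences were not used here. Alternatives were other size factors, filters, tests (DESeq2 1.42.0, limma-voom), only the groups compared, a replicate block, TPM on a log2 scale, an offset for effective length and leaving out each library. Counts of the lists with library totals alone and without inhibitor replicate 1 were added after seeing the data.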

Additional observations from a re-analysis of the deposited data

How the results depend on the processing

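CCND1, CCNE1, CCNE2, CCNA2 and CCNB2 kept their calls and directions for inhibitor against Wnt3a and against vehicle in all 20 alternatives, with CCNE1 between -3.45 and -2.30 and CCNE2 between -3.94 and -3.33 on the log2 scale against Wnt3a. CCNB1 kept its call against Wnt3a in all 20 (edgeR, DESeq2 or limma adjusted p at most 0.0285), but against vehicle it lost it with library totals alone (log2 0.21, edgeR adjusted p = 0.0642). The number of cyclins called higher ranged from 3 to 4 in both inhibitor comparisons when 1 library was left out, and the number called lower from 3 to 4 against vehicle. With Wnt3a no cyclin was called in any alternative, while all genes called numbered 75, 259 with genes of at least 1 count, 299 with DESeq2 and 20 to 140 without 1 library. The smallest counts limit CCND2, which was not tested at a mean CPM of at least 1.

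Signs turned only for genes that were not called. For CCND3 the log2 fold change was -0.057, -0.15 and -0.15 against Wnt3a and -0.0054, -0.046 and -0.047 against vehicle with library totals alone and with log2(TPM + 1) and log2(TPM + 0.1). For CCNF against Wnt3a it was -0.23, -0.32 and -0.35 in the same settings, -0.0048 with genes of at least 1 count, -0.037 with a mean CPM of at least 1, -0.0033 with limma-voom and -0.00041 with the replicate block. With Wnt3a, log2(TPM + 1) and log2(TPM + 0.1) gave 0.039 and 0.043 for CCNE1, 0.0074 and 0.0074 for CCNB1, 4.7e-05 and 8.2e-06 for CCNB2, and 0.025 and 0.026 for CCNF. Without 1 library, values with Wnt3a ran from -0.015 to 0.12 for CCND3, -0.16 to 0.034 for CCNB2 and -0.0043 to 0.10 for CCNA2, and those of CCNF from -0.11 to 0.23 against Wnt3a and -0.15 to 0.18 against vehicle. The CCNB1 length ratio with Wnt3a ran from -0.0095 to 0.0030. In percentage points the share of CCNE1 ran from -0.955 to 5.70 for inhibitor against vehicle, the share of CCNB1 from -0.168 to 0.510 and that of CCND1 from -1.32 to 0.124 for Wnt3a against vehicle. The causes were not tested.

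Deviations of same-numbered libraries of different groups correlated at -0.249 to 0.596 over 9 pairs, so the numbers are taken only as labels. With the replicate number as a block, 79 rather than 75 genes were called with Wnt3a, 9166 rather than 9013 for inhibitor against Wnt3a and 9039 rather than 8895 against vehicle, and the cyclins gave 0, 6 and 6 calls as before.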
